A study of Mus musculus with 12 samples.

Results

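Oncofetal and progenitor genes are active in the fetal liver or in immature epithelial cells, fall silent in most adult hepatocytes and return in regenerating, cholestatic or neoplastic liver. The genes listed here were Afp, H19, Igf2, Mdk, Ly6d, Gpc3, Dlk1, Igf2bp3, Spink3 and Tff3, and their members on the array were all gene probes carrying one of these names in the scanner files. Of the 10 listed genes, 9 had a probe, out of 27962 gene names on the array, with 15 of its 41174 gene probes. Spink3 was not analysed here, since no probe carried that name. Of the 15 probes, 12 probes of 8 genes passed the filter on dim probes and stood among the 21688 probes tested, and both Dlk1 probes and 1 of 3 Igf2bp3 probes did not.

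The RNA came from whole, snap-frozen livers of 3 kinds of mice. Abcb4 (-/-) mice fed cholic acid (CA) for 9 weeks and Abcb4 (-/-) mice fed ursodeoxycholic acid (UDCA) for 9 weeks were each set against Abcb4 (+/+) mice. Abcb4 is the canalicular phospholipid transporter, and its loss in mice leads to a bile duct disease that resembles sclerosing cholangitis. CA was meant to worsen that disease and UDCA to ease it. UDCA lacks a hydroxyl group that CA has and carries another as its epimer. Each knockout liver was hybridised with a wild-type liver in the other dye, on 6 2-colour Agilent arrays from 5 livers per diet, without pooling. Every knockout mouse was fed a bile acid, so a ratio to wild type holds the genotype and the diet together. The doses, what the wild-type mice ate, and the strain, sex and age of all mice are not stated in the labels used here.

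During fetal life Afp is a main serum protein of the liver, and in mice the repressors Zhx2 and Zbtb20 shut it down after birth. Igf2, a fetal growth factor, and H19, a noncoding RNA, are imprinted neighbours that share enhancers and are expressed from opposite parental alleles. Igf2bp3 is a fetal RNA-binding protein that binds Igf2 mRNA among others. Mdk (midkine) is a heparin-binding growth factor, Gpc3 a membrane heparan sulfate proteoglycan and Dlk1 a membrane protein of hepatoblasts. Ly6d is a small membrane-anchored protein of epithelial and lymphoid cells, and Tff3 is a trefoil peptide secreted by mucous epithelia, bile ducts included.

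The sequences below are the oligonucleotides of both H19 probes and of the intron-spanning Mdk and Igf2bp3 probes, shown because 3 of them span an intron and so report spliced RNA. Positions are those of the scanner files (mm7), and all 4 lie on the minus strand. Each is 60 bases long, given 5′ to 3′ in lower case with no part singled out. The last 3 cover 148, 211 and 608 bases of genome, from which the spanned introns follow.
H19 A_51_P142196, chr7:139003144-139003203: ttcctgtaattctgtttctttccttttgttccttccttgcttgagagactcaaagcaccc
H19 A_52_P571350, chr7:139003393-139003540: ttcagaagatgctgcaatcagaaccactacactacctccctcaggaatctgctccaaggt
Mdk A_51_P453635, chr2:91780364-91780574: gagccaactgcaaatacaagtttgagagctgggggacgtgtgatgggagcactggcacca
Igf2bp3 A_51_P302336, chr6:49047900-49048507: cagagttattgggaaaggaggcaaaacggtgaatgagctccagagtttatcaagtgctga

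Other probes were Afp A_51_P510891 (chr5:90479870-90479929, plus strand), Igf2 A_51_P516826 (chr7:139078075-139078135) and A_51_P516833 (chr7:139078490-139078549), and Mdk A_51_P225665 (chr2:91780582-91780641). Ly6d was read by A_51_P343517 (chr15:74842671-74842730), Gpc3 by A_52_P23225 (chrX:47364815-47364874) and Tff3 by A_51_P456208 (chr17:29320548-29320607). The remaining Igf2bp3 probes were A_52_P508974 (chr6:49045761-49045820) and A_52_P271232 (chr6:49067452-49067511), and Dlk1 had A_51_P135618 (chr12:106981689-106981748) and A_52_P177324 (chr12:106981450-106981509). All but the Afp and Dlk1 probes lie on the minus strand. The H19 and Igf2 probes are neighbours on chromosome 7. The files used here do not name the exon in which a probe lies.

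Signed values are log2 ratios, knockout over wild type, within an array. Each fitted value is given with the standard error of a limma fit over all 12 arrays, and adjusted p is the Benjamini-Hochberg value over all tested probes. Calls were made under 0.05. In the authors' deposited value table the CA columns run the other way, with correlations of -0.971 to -0.887 with these ratios, and the UDCA columns the same way, with 0.771 to 0.952. Levels are normalized log2 intensities of a single channel and are compared only within a probe. In whole liver, fewer cells of a type and less RNA per cell cannot be told apart.

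The arrays and their partners set limits that touch several genes below. Median intensity was 250.2 to 1296 in green and 59.2 to 158.2 in red, and 31.6% to 68.4% of the spots in a channel passed as well above background. The wild-type channels of CA arrays 2 and 4 stood apart, with mean correlations of 0.901 and 0.914 with the other wild-type channels, against 0.950 to 0.962 for the other arrays. In the wild-type channels of CA arrays 3 and 4 the summed level of the 6 tested exocrine pancreas markers of 26 listed was 76427 and 72473, against 3250 to 6147 in the other wild-type channels. Abcb4 itself was lower in knockout liver, at -0.78 ± 0.20 with CA and -1.26 ± 0.20 with UDCA for A_51_P249118, and -2.73 ± 0.21 and -1.77 ± 0.21 for A_52_P223194 (adjusted p of 4.28e-08 to 0.00377 in limma). Albumin, which marks hepatocytes, read -0.45 ± 0.37 with CA (adjusted p = 0.304) and 0.04 ± 0.37 with UDCA (adjusted p = 0.953).

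Taken by the brightest probe of each gene, 8 of the 8 tested genes rose with CA in knockout liver and 0 fell, while 34.1% of all tested probes were called higher and 25.6% lower. Their median ratio was 1.47, against 0.04 for all tested probes. In UDCA-fed knockout liver 5 of 8 rose and 0 fell, against 15.2% and 8.33% of all tested probes, and the median was 0.52 against 0.03. Afp, Mdk, Ly6d, Igf2bp3 and Tff3 were the 5 that passed the test with UDCA, and H19, Igf2 and Gpc3 did not. The brightest probes of Afp, Gpc3, Igf2bp3 and Tff3 passed the filter only through knockout channels, so these counts describe the genes and support nothing about them as a group.

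**Figure D1:**
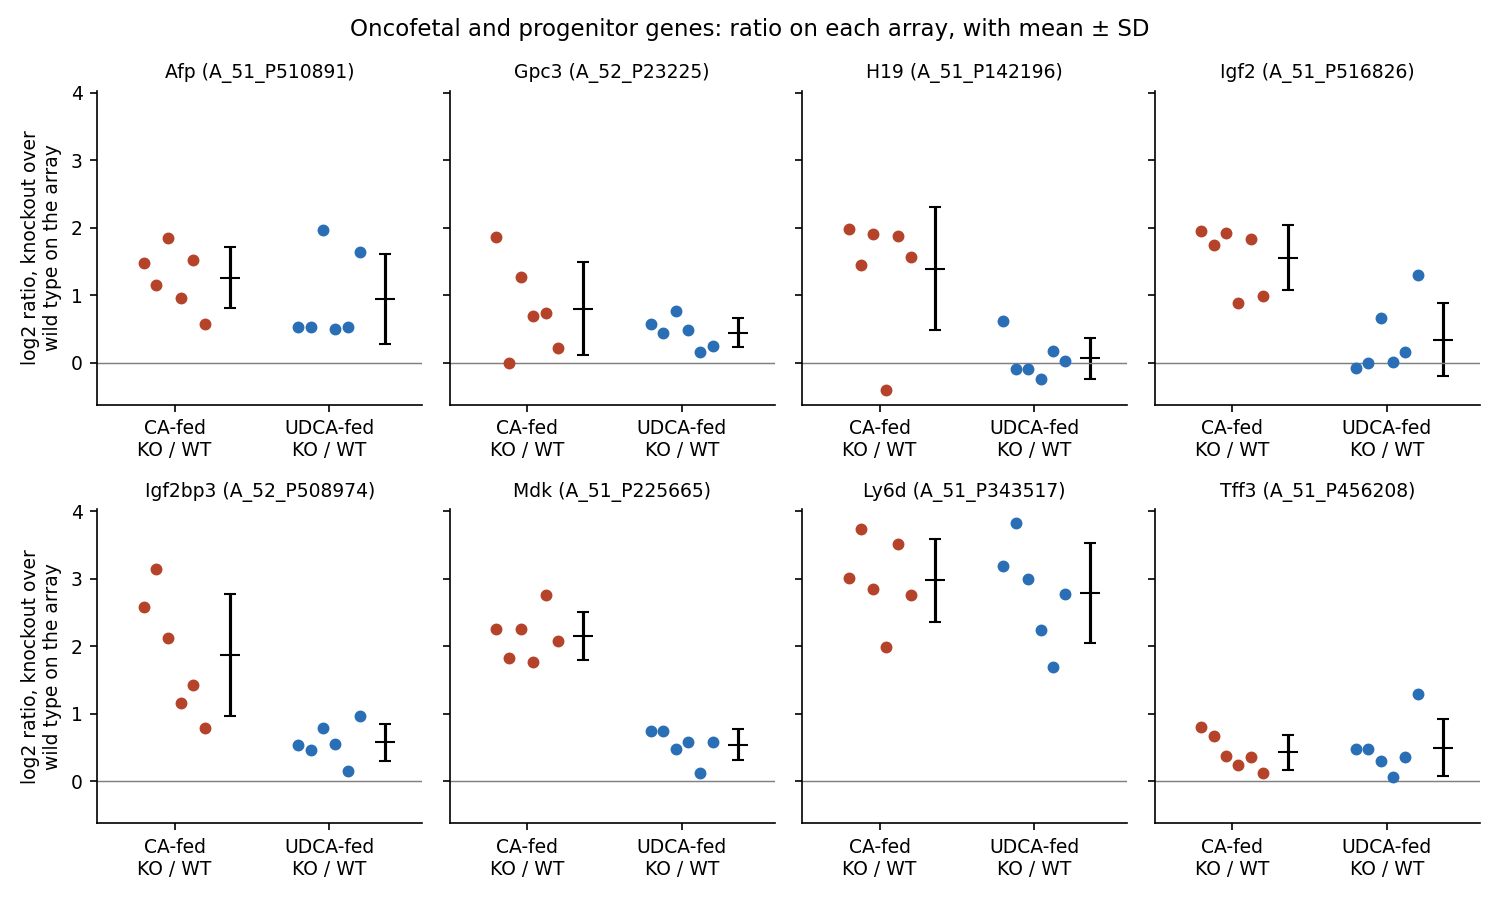
Log2 ratio of knockout over wild type (y axis) on each of 6 CA and 6 UDCA arrays (points) for the brightest tested probe of each gene, with mean and SD. Ly6d is high with both diets, the H19, Igf2 and Mdk points sit mostly higher with CA, and those of Afp, Gpc3 and Tff3 mix.

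Afp rose in both diet groups. It read 1.47, 1.16, 1.85, 0.96, 1.52 and 0.57 in CA arrays 1 to 6, and 0.53, 0.53, 1.96, 0.50, 0.52 and 1.64 in UDCA arrays 1 to 6. All 12 values were above 0, the diets overlapped, and UDCA arrays 3 and 6 stood well above the other UDCA arrays. The fitted ratio was 1.26 ± 0.20 with CA (2.39-fold, adjusted p = 6.75e-05) and 0.95 ± 0.20 with UDCA (1.93-fold, adjusted p = 0.00255). The difference between the diets was 0.31, with a 95% interval of -0.29 to 0.91 (adjusted p = 0.443). Afp was well above background in 6 of 6 knockout channels with either diet and in 4 of 6 wild-type channels with either. The gene is printed on 10 spots per array, whose ratios had a median SD of 0.130 within an array.

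Of the postnatal repressors of Afp, Zhx2 was too dim to be tested, being well above background in 4 of 6 knockout and 4 of 6 wild-type channels of the CA arrays and in 1 and 1 of the UDCA arrays. The brightest Zbtb20 probe, A_52_P657844, read 0.42 ± 0.16 with CA (adjusted p = 0.0331) and -0.23 ± 0.16 with UDCA (adjusted p = 0.336), and its 2 other probes were not called. Of 18 listed regulators of fetal liver genes, 16 were tested, of which 5 rose and 7 fell with CA, and 0 rose and 6 fell with UDCA. Over all tested probes 34.1% were called higher and 25.6% lower with CA, and 15.2% and 8.33% with UDCA. The median of the regulators was -0.20 with CA and -0.26 with UDCA. Cebpa, a factor of the mature hepatocyte, read -1.21 ± 0.31 with CA and -1.12 ± 0.35 with UDCA. Onecut1, a factor of hepatoblasts and bile ducts, read -0.86 ± 0.13 with CA and -0.43 ± 0.13 with UDCA. Both fell in both groups. Foxa3, a hepatocyte factor, fell with CA at -0.82 ± 0.15 and read -0.26 ± 0.15 with UDCA (adjusted p = 0.245).

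H19 rose with CA and was dim on the UDCA arrays. Both probes were well above background in 6 of 6 knockout and 6 of 6 wild-type channels with CA. With UDCA, A_51_P142196 was so in 1 and 3 of 6, and A_52_P571350 in 1 and 1. The spliced-RNA probe A_52_P571350 read 2.98, 3.73, 2.31, 2.15, 2.09 and 1.98 on CA arrays 1 to 6, and -0.07, -0.22, 0.25, 0.07, 0.30 and 0.11 on UDCA arrays 1 to 6. The lowest CA array lay far above the highest UDCA array, a separation without overlap that 6.06% of all tested probes showed in that direction and 3.89% in the other. The fit gave 2.54 ± 0.17 with CA (5.82-fold, adjusted p = 1.12e-08), 0.07 ± 0.17 with UDCA (adjusted p = 0.811) and a difference between the diets of 2.47 ± 0.24 (adjusted p = 2.16e-05). As the UDCA ratio sets channels against each other that were mostly not well above background, the size of this difference is not a measured fold. Within slide 3, which held 1 CA and 2 UDCA arrays, the diets differed by 2.23. Within slide 4, with 1 CA and 3 UDCA arrays, they differed by 1.78. Within-slide values here and below carry no dye term. On slide 3 the knockout was in Cy3 on the CA array and in Cy5 on both UDCA arrays. Diet and dye thus cannot be told apart there. On slide 4 it was in Cy3 on the CA array and UDCA arrays 4 and 5, and in Cy5 on UDCA array 3.

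The second H19 probe, A_51_P142196, read 1.98, 1.44, 1.91, -0.41, 1.88 and 1.57 on the CA arrays and 0.62, -0.09, -0.09, -0.25, 0.17 and 0.02 on the UDCA arrays. CA array 4 fell out of line with the other CA arrays. There the knockout spot was saturated for both H19 probes. The fitted ratio was 1.39 ± 0.22 with CA (adjusted p = 7.69e-05) and 0.06 ± 0.22 with UDCA (adjusted p = 0.880), and the diets differed by 1.33 ± 0.32 (adjusted p = 0.00643), or by 1.62 within slide 3 and 1.63 within slide 4.

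The single channels showed that H19 was high in both partners of the CA arrays. Knockout levels of A_51_P142196 were 12.68, 15.14, 11.30, 13.84, 11.36 and 12.70 on CA arrays, with 10.71, 13.70, 9.39, 14.25, 9.48 and 11.13 in their wild-type partners. On UDCA arrays the knockout levels were 7.27 to 8.22 and the wild-type levels 6.65 to 8.31. Knockout and wild-type levels of the CA arrays were high on the same arrays, 2 and 4, and every wild-type level of the CA arrays lay above every level of the UDCA arrays. Wild-type levels of this probe were 3.95 ± 0.75 higher on CA than on UDCA arrays, which put it first of 21688 probes by size but not past the threshold (adjusted p = 0.0789). For A_52_P571350 the difference was 1.98 ± 0.39 (rank 12, adjusted p = 0.0791). Of all tested probes, 0.0553% were called higher and 0 lower in that comparison of wild-type channels.

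Without CA arrays 2 and 4, a choice made after seeing the data, the H19 wild-type differences were 2.68 ± 0.37 (adjusted p = 0.00584) and 1.41 ± 0.26 (adjusted p = 0.0263), against 0.636% of probes called higher and 0.00922% lower. The brighter Igf2 probe then read 0.92 ± 0.16 (adjusted p = 0.0204). Within slide 3 the wild-type level of A_51_P142196 was 9.48 on the CA array and 7.15 on the UDCA arrays, and within slide 4 it was 11.13 and 7.71. In the knockout channels H19 was 5.28 ± 0.52 and 4.45 ± 0.48 higher with CA for the probes in the same order (adjusted p of 9.03e-06 and 1.39e-05), where 18.4% of all probes were called higher and 17.2% lower. Whether the wild-type partners of the CA arrays differed in diet from those of the UDCA arrays is not stated in the labels used here.

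**Figure D2:**
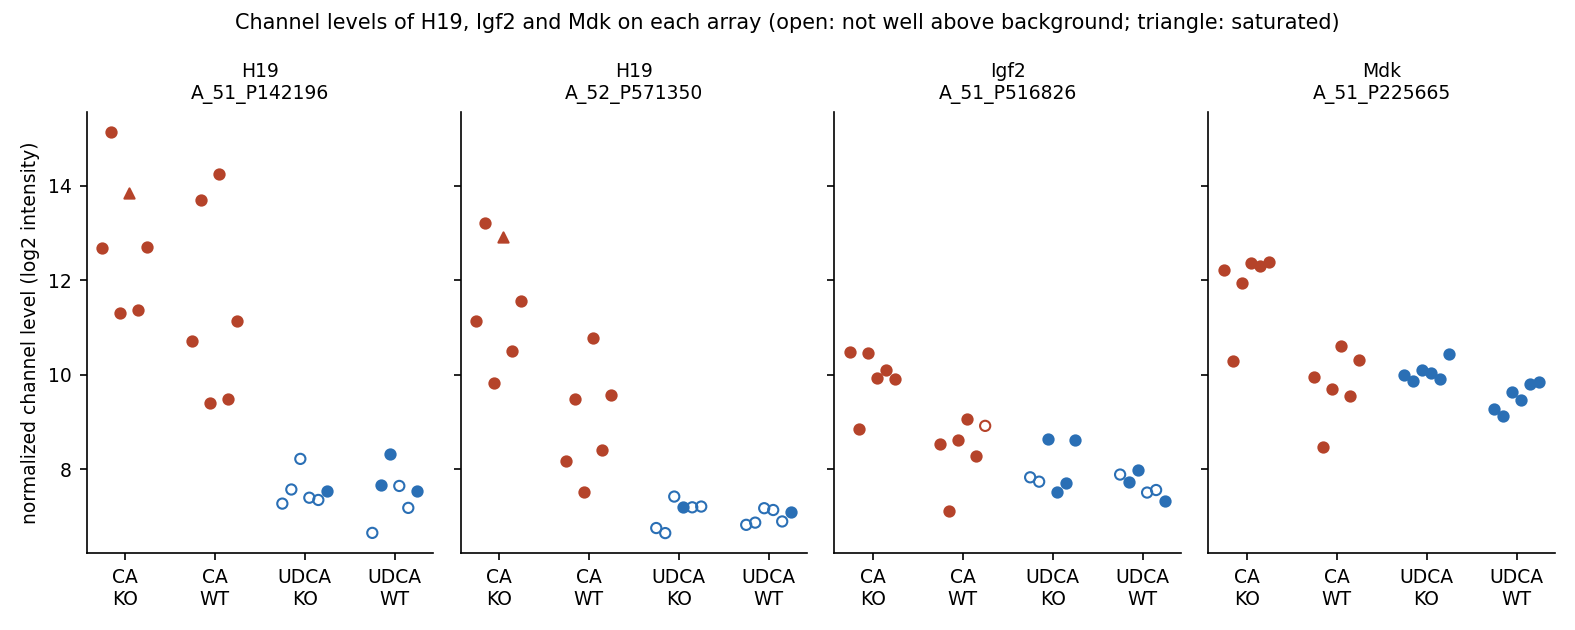
Normalized log2 intensity (y axis) of the knockout (KO) and wild-type (WT) channels on the CA and UDCA arrays, 1 point per array, for both H19 probes and the brighter Igf2 and Mdk probes; open points were not well above background and triangles were saturated. Both H19 channels of the CA arrays lie above those of the UDCA arrays, whereas for Mdk the wild-type channels of the diets overlap.

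Igf2 rose with CA by both of its probes. The brighter, A_51_P516826, read 1.95, 1.74, 1.91, 0.89, 1.84 and 0.99 on CA arrays and -0.08, 0.00, 0.66, 0.00, 0.15 and 1.31 on UDCA arrays. The diets overlapped only through UDCA array 6. The fitted ratios were 1.55 ± 0.19 with CA (2.93-fold, adjusted p = 4.20e-06) and 0.34 ± 0.19 with UDCA (adjusted p = 0.214). The probe was well above background in 6 of 6 knockout and 5 of 6 wild-type channels with CA, and in 4 and 3 with UDCA. The UDCA ratio thus rests in part on channels not well above background. The difference of 1.21 ± 0.26 was called (95% interval 0.65 to 1.77, adjusted p = 0.00363), and was 1.88 within slide 3 and 0.72 within slide 4. With Agilent's processed signals it was 1.13 (adjusted p = 0.0682), and the UDCA ratio was then called at 0.90 (adjusted p = 0.0362).

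A_51_P516833 read 1.89, 1.90, 1.40, 1.08, 0.35 and 0.14 on CA arrays and between -0.18 and 0.32 on UDCA arrays. The first 4 CA arrays were the high ones. The wild-type channel was not well above background on any CA array, so the mean ratio there is given as at least 2.18-fold. In the fit it was 1.12 ± 0.16 (95% interval 0.77 to 1.47, adjusted p = 3.12e-05). Such a bound allows for the dim wild-type channel and not for the spread between arrays. For such a bound the wild-type level on each array was the higher of the probe's own value and the faintest signal accepted as above background. Here it was the probe's own value throughout, so the bound equals the ratio of the mean levels. Neither channel was well above background on any UDCA array. The fitted difference between the diets, 1.04 ± 0.23 (adjusted p = 0.0043), shrank to 0.08 (adjusted p = 0.892) with the slide as a fixed block, and was 0.12 within slide 3 and 0.10 within slide 4. With that block the UDCA ratio was called at 0.63 (adjusted p = 0.00583), against 0.08 (adjusted p = 0.777) without it.

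Igf2bp3 rose with CA by both tested probes. A_52_P508974 read 2.58, 3.14, 2.12, 1.16, 1.43 and 0.79 on CA arrays and 0.53, 0.47, 0.79, 0.55, 0.15 and 0.96 on UDCA arrays, where the groups met only at CA array 6. Its wild-type channel was well above background on 1 of 6 CA arrays. The fit gave 1.87 ± 0.19 with CA (3.65-fold, adjusted p = 7.57e-07) and 0.57 ± 0.19 with UDCA (95% interval 0.17 to 0.98, adjusted p = 0.0387). The wild-type channel was not well above background on any UDCA array. A bound of the same kind as for Igf2 put the mean UDCA ratio at 1.33-fold or more, leaving out the spread between arrays. The UDCA call was weak, with an adjusted p of up to 0.213 under other settings and of 0.0847 with the replicate number as a block. The diets differed by 1.29 ± 0.27 (adjusted p = 0.00272), by 0.93 within slide 3 and by 0.29 within slide 4, and with the slide as a fixed block the difference was 0.90 (adjusted p = 0.0918).

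The intron-spanning Igf2bp3 probe A_51_P302336 read 1.38, 2.68, 0.74, 0.77, 0.23 and 0.19 on CA arrays and between -0.23 and 0.40 on UDCA arrays. CA array 2 carried the highest value by far. The mean ratio with CA was at least 1.96-fold by a bound of the same kind, which leaves out the spread between arrays. The 95% interval of the fitted log2 ratio was 0.54 to 1.45 (adjusted p = 0.000929), and the UDCA ratio was 0.13 ± 0.21 (adjusted p = 0.724). The difference between the diets, 0.87 ± 0.30 (adjusted p = 0.0445), fell to 0.56 (adjusted p = 0.0570) without CA array 2, to 0.16 (adjusted p = 0.842) with the slide as a fixed block, and had an adjusted p of 0.0738 with the replicate number as a block. A_52_P271232 was not tested, and read 0.13 to 2.31 on CA arrays, again highest on array 2, and -0.17 to 0.37 on UDCA arrays. The related Igf2bp1 was not well above background in any channel, and Igf2bp2 read -0.01 ± 0.11 with CA (adjusted p = 0.919) and 0.27 ± 0.11 with UDCA (adjusted p = 0.0909).

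Of 18 other listed genes of the IGF axis, 14 were tested, of which 4 rose and 4 fell with CA, 1 rose and 5 fell with UDCA, and 3 were higher and 1 lower with CA than with UDCA. The CA counts are near the 34.1% and 25.6% of all tested probes called higher and lower, and with UDCA those shares were 15.2% and 8.33%. Between the diets 16.3% of all tested probes were called higher with CA and 10.7% lower. The list's median was -0.11 with CA and 0.00 with UDCA. Igfbp1, a secreted IGF carrier of the liver, rose to a ratio of 1.78 ± 0.27 with CA and 1.43 ± 0.27 with UDCA. Igfals, which keeps IGFs in a large serum complex, fell in both groups, at -1.61 ± 0.17 and -1.32 ± 0.17. Igf1r, the receptor that passes on the Igf2 signal, was called with CA at 1.36 ± 0.14 and not with UDCA at 0.06 ± 0.14 (adjusted p = 0.792), a difference of 1.30 ± 0.20 (adjusted p = 0.000332).

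Igfbp2, another carrier, read -0.19 ± 0.18 with CA (adjusted p = 0.373) and fell with UDCA at -1.44 ± 0.18. Igf2r, the receptor that removes Igf2, rose with CA at 0.50 ± 0.12 and read 0.29 ± 0.13 with UDCA (adjusted p = 0.129). For Igf1, the main postnatal IGF, the brightest probe read -0.17 ± 0.18 with CA (adjusted p = 0.416) and -0.54 ± 0.18 with UDCA (adjusted p = 0.0389). Its dimmest probe, A_52_P306327, was called with CA at -1.11 ± 0.29 (adjusted p = 0.00386). The third, A_52_P536434, read -0.23 ± 0.14 with CA (adjusted p = 0.162) and fell with UDCA at -0.46 ± 0.14 (adjusted p = 0.0232). The difference between the probes was not tested.

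Of 20 listed imprinted genes other than H19 and Igf2, 15 were tested, and 10 rose and 1 fell with CA, where 34.1% of all tested probes rose and 25.6% fell. With UDCA 5 rose and 1 fell, where 15.2% of all tested probes rose and 8.33% fell. The medians were 0.49 and 0.07. Plagl1, a zinc finger factor that in mice drives a network of imprinted genes including Igf2 and H19, read 2.53 ± 0.13 with CA and 0.91 ± 0.13 with UDCA, a difference of 1.63 ± 0.19 (adjusted p = 5.18e-05). Grb10, an adaptor that restrains growth factor receptors, read 2.27 ± 0.18 and 0.55 ± 0.18. Sgce, a sarcoglycan, read 1.94 ± 0.15 with CA and 1.80 ± 0.15 with UDCA, and Phlda2 read 1.20 ± 0.17 and 1.16 ± 0.17. All 4 were called in both groups.

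Dlk1, the imprinted hepatoblast protein, stayed near background. A_51_P135618 was well above background in 2 of 6 knockout and 0 of 6 wild-type channels with CA and in 1 and 0 with UDCA, and A_52_P177324 in 4 and 2 with CA and in 1 and 0 with UDCA. Their ratios lay between 0.06 and 0.68 on CA arrays and -0.34 and 0.31 on UDCA arrays for A_51_P135618, and between -0.77 and 0.17 and between -0.47 and 0.12 for A_52_P177324. The probes leaned in opposite directions on CA arrays. A change of Dlk1 was not detectable at these signals.

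Mdk rose in both groups by its brighter probe and more with CA. A_51_P225665 read 2.26, 1.82, 2.25, 1.77, 2.75 and 2.07 on CA arrays and 0.74, 0.75, 0.47, 0.58, 0.12 and 0.57 on UDCA arrays. Every CA array lay above every UDCA array, which 6.06% of all tested probes showed, against 3.89% in the other direction. The fit gave 2.15 ± 0.13 with CA (4.45-fold, adjusted p = 3.15e-09), 0.54 ± 0.13 with UDCA (1.45-fold, adjusted p = 0.00563) and a difference of 1.62 ± 0.18 (3.07-fold, 95% interval 1.24 to 2.00, adjusted p = 4.11e-05). The UDCA ratio was 0.36 (adjusted p = 0.127) with the slide as a fixed block. Within slide 3 the diets differed by 2.01 and within slide 4 by 1.69.

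Its spliced-RNA probe A_51_P453635 read 3.00, 2.32, 1.91, 1.52, 2.10 and 1.30 on CA arrays and 0.15, 0.07, 0.55, 0.08, 0.27 and 1.03 on UDCA arrays, again without overlap. The ratio was 2.03 ± 0.18 with CA (4.07-fold, adjusted p = 1.65e-07) and 0.36 ± 0.18 with UDCA (adjusted p = 0.166), where the wild-type channel was not well above background on any array. With Agilent's processed ratios that UDCA ratio was called at 1.67 (adjusted p = 1.16e-05), and with the authors' deposited values at 0.38 (adjusted p = 0.0311). The fitted difference was 1.67 ± 0.25 (adjusted p = 0.000326). Wild-type levels of the brighter probe were 8.48 to 10.60 on CA arrays and 9.13 to 9.85 on UDCA arrays and did not pass the test (0.24 ± 0.25, adjusted p = 0.539). Its knockout levels were 1.86 ± 0.28 higher with CA (adjusted p = 0.000193).

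Gpc3 rose with CA, to a small extent. It read 1.87, -0.01, 1.27, 0.69, 0.74 and 0.22 on CA arrays and 0.57, 0.44, 0.76, 0.48, 0.16 and 0.24 on UDCA arrays. The UDCA values lay inside the range of the CA values, and CA array 2 was near 0. The fitted ratio was 0.80 ± 0.17 with CA (1.74-fold, adjusted p = 0.000996) and 0.44 ± 0.17 with UDCA (adjusted p = 0.0767), with a difference of 0.35 and a 95% interval of -0.17 to 0.87 (adjusted p = 0.303). Without CA array 2 the UDCA ratio was called (adjusted p = 0.0186), as was the difference between the diets, at 0.58 (adjusted p = 0.0380). Gpc3 was well above background in 6 of 6 knockout and 3 of 6 wild-type channels with CA, and in 5 and 1 with UDCA.

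Of 23 listed partners of midkine and glypicans (receptors, relatives and modifying enzymes), 18 were tested, of which 10 rose and 3 fell with CA and 5 rose and 2 fell with UDCA. Of all tested probes 34.1% rose and 25.6% fell with CA, and 15.2% rose and 8.33% fell with UDCA. The list's medians were 0.60 and 0.07. Itga6, an integrin chain that binds laminin and midkine, read 2.68 ± 0.14 with CA and 1.15 ± 0.14 with UDCA. Sulf1, an extracellular sulfatase that trims heparan sulfate, read 1.25 ± 0.14 and 0.61 ± 0.14, and Ptn, the paralogue of midkine, 1.25 ± 0.25 and 0.87 ± 0.25. Those 3 rose in both groups. Notum, which inactivates Wnt ligands and acts on glypicans, fell in both groups, at -1.62 ± 0.13 with either diet.

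Ly6d had the highest fitted ratio of the 12 tested probes with either diet. It read 3.01, 3.73, 2.85, 1.99, 3.51 and 2.76 on CA arrays and 3.19, 3.82, 3.00, 2.24, 1.70 and 2.78 on UDCA arrays. All 12 arrays were far above 0 and the diets overlapped throughout. The fit gave 2.98 ± 0.19 with CA (7.87-fold, adjusted p = 8.86e-09) and 2.79 ± 0.19 with UDCA (6.90-fold, adjusted p = 1.36e-07). The difference was 0.19, with a 95% interval of -0.40 to 0.78 (adjusted p = 0.647). On 3 CA and 3 UDCA arrays, those with the knockout in Cy3, the knockout spot was saturated. The fold may be understated there, which was not tested.

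Tff3 rose by small amounts. It read 0.80, 0.67, 0.37, 0.24, 0.36 and 0.12 on CA arrays and 0.47, 0.47, 0.30, 0.06, 0.36 and 1.30 on UDCA arrays. UDCA array 6 stood apart from the other 5. The fitted ratio was 0.43 ± 0.14 with CA (1.34-fold, adjusted p = 0.0152) and 0.49 ± 0.14 with UDCA (1.41-fold, adjusted p = 0.0166), and the difference was -0.07 with a 95% interval of -0.49 to 0.35 (adjusted p = 0.832). Without UDCA array 6 the UDCA ratio was 0.30 (adjusted p = 0.0536), and without CA array 1 the CA ratio was 0.35 (adjusted p = 0.0576).

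Of 21 listed paralogues of Ly6d, Tff3 and the other genes, 11 were tested, of which 5 rose and 0 fell with CA and 3 rose and 0 fell with UDCA. The shares of all tested probes that rose were 34.1% with CA and 15.2% with UDCA. Ly6e, a membrane protein of many cell types, rose to ratios of 1.73 ± 0.22 and 2.19 ± 0.22 with CA and UDCA. Ly6k rose to 0.69 ± 0.19 and 0.70 ± 0.19. Ly6c1, found on leukocytes and endothelium, was called with CA at 0.96 ± 0.18 and read 0.39 ± 0.18 with UDCA (adjusted p = 0.129). Tff2, the gastric trefoil peptide, was called with CA at 1.19 ± 0.26 and read 0.73 ± 0.26 with UDCA (adjusted p = 0.0578).

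Set against each other, the diets differed for 4 of 8 genes by the brightest probe, H19, Igf2, Mdk and Igf2bp3, all higher with CA, and for 0 in the other direction. Over all tested probes 16.3% were called higher with CA and 10.7% lower, and the median difference was 0.78 for the 8 genes and 0.03 for all probes. Of the 12 tested probes, the Igf2bp3 probes, Igf2 A_51_P516833 and Mdk A_51_P453635 passed the filter on dim probes only through CA knockout channels, and both H19 probes and Igf2 A_51_P516826 only through CA arrays. The filter thus favoured calls higher with CA among them. Under the filter asking for signal on all 12 arrays in 1 channel, 1 of the 4 genes still tested differed between the diets. Among the 8 genes, Afp, Ly6d, Gpc3 and Tff3 missed the threshold, which does not show that the diets acted alike on them: the intervals given above reach 0.91 for Afp, 0.78 for Ly6d, 0.87 for Gpc3 and 0.35 for Tff3. Doses are unknown and each diet was measured against its own wild-type partners, so these differences are indirect. Only 2 slides held both diets, and the within-slide values above come from them, without a term for dye.

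**Figure D3:**
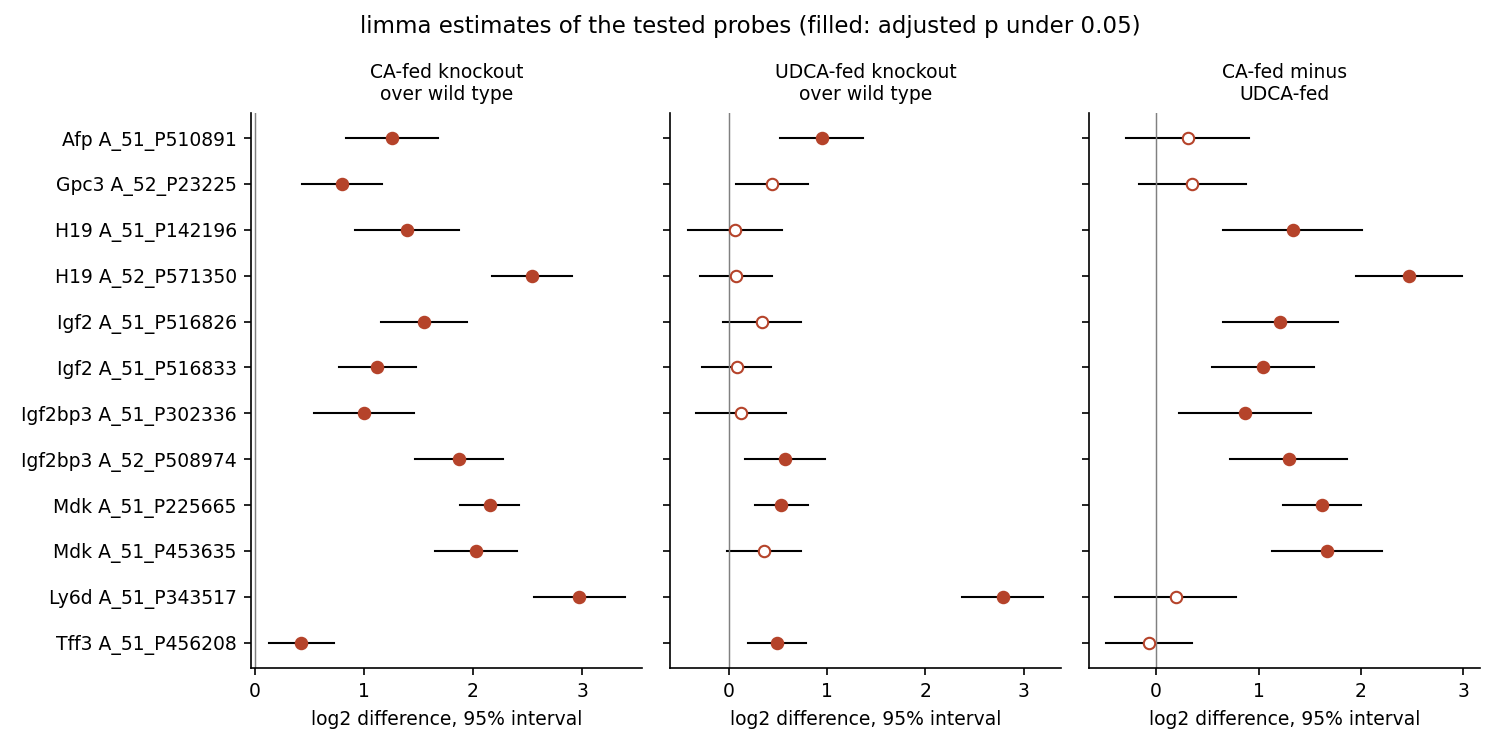
Fitted log2 difference with its 95% interval (x axis) for the 12 tested probes (rows), in CA-fed knockout against wild type, in UDCA-fed knockout against wild type and between the diets; filled points have an adjusted p under 0.05. All 12 CA estimates are filled, against 5 UDCA estimates and 8 differences.

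Other oncofetal and hepatoblast genes, from a list chosen with earlier results of these data known, numbered 23. Of these 18 were tested, of which 14 rose and 1 fell with CA, 10 rose and 1 fell with UDCA, and 8 were higher with CA than with UDCA. Of all tested probes 34.1% rose and 25.6% fell with CA, 15.2% rose and 8.33% fell with UDCA, and 16.3% were higher with CA than with UDCA. The list's medians were 1.79 with CA and 0.94 with UDCA. Sox9, a factor of bile ducts and of hepatic progenitors, read 3.69 ± 0.21 with CA and 1.26 ± 0.21 with UDCA. Epcam, a surface protein of bile duct and progenitor cells, read 3.57 ± 0.25 and 1.41 ± 0.25. Cd24a, another surface marker of immature cells, read 3.10 ± 0.27 and 1.72 ± 0.25, and Scd2, a desaturase of fetal liver, 2.77 ± 0.13 and 0.98 ± 0.13. All 4 were called in both groups and between the diets.

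Bile duct and fibroblast markers were also higher in knockout liver. Of 18 listed cholangiocyte markers 17 were tested, and 17 rose with CA, 12 with UDCA and 13 were higher with CA than with UDCA, against 34.1%, 15.2% and 16.3% of all tested probes. Their summed linear level was 97891 to 268262 in CA knockout and 13033 to 62624 in CA wild-type channels, and 40949 to 64658 in UDCA knockout and 10402 to 14280 in UDCA wild-type channels. The CA knockout sums also differed by dye, at 146367 to 268262 on arrays 1 to 3, with knockout in Cy5, and 97891 to 105404 on arrays 4 to 6, with knockout in Cy3. Sox9 and Epcam stand on this list and on that of oncofetal genes. Pkhd1, a protein of the bile duct cilium, read 3.48 ± 0.13 and 1.15 ± 0.13 with CA and UDCA, and Bicc1 read 3.48 ± 0.23 and 3.18 ± 0.23.

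Of 17 tested stellate cell and fibroblast markers, 17 rose with CA and 16 with UDCA. Their sum was 114678 to 222584 in CA knockout and 26868 to 80783 in CA wild-type channels, and 84291 to 147041 in UDCA knockout and 23832 to 31476 in UDCA wild-type channels. These CA knockout sums split by dye, at 195443 to 222584 on arrays 1 to 3, in Cy5, and 114678 to 133677 on arrays 4 to 6, in Cy3. The highest CA wild-type sum was that of array 4. Of 19 tested cell division genes, 18 rose with CA and 16 with UDCA. Of 18 tested hepatocyte markers, 0 rose and 3 fell with CA and 1 rose and 3 fell with UDCA. The median ratio of this list, which holds albumin, changed sign with dye. With CA it was 1.16 to 1.90 on arrays 1 to 3, with knockout in Cy5, and -2.40 to -1.95 on arrays 4 to 6, in Cy3. With UDCA it was 0.55 to 1.28 and -2.54 to -0.56 on the same array numbers. The few calls thus do not show that hepatocyte transcripts were unchanged. Of 16 tested macrophage markers 10 rose and 5 fell with CA, and 11 rose and 1 fell with UDCA. Of all tested probes 34.1% rose and 25.6% fell with CA, and 15.2% rose and 8.33% fell with UDCA. The part of any of these cell types in the ratios of the oncofetal genes was not tested.

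Other markers were of lymphoid, endothelial and erythroid cells, and of pancreas and intestine. With CA, 4 of 7 tested B lineage markers rose and 1 fell, 5 of 9 T and NK cell markers rose and 1 fell, and 4 of 12 endothelial markers rose and 2 fell, beside 34.1% and 25.6% of all tested probes. With UDCA, 1, 1 and 2 rose and 0, 0 and 1 fell on these lists, beside 15.2% and 8.33%. Erythroid markers gave 1 higher and 3 lower of 7 with each diet. Exocrine pancreas markers gave 0 higher and 5 lower of 6 with CA and 0 higher and 0 lower with UDCA, and intestinal markers 1 higher and 4 lower of 5 with CA and 1 higher and 0 lower with UDCA. Without CA arrays 3 and 4, chosen after seeing the data for their pancreas transcripts, the counts of the oncofetal genes called higher were 8 with CA, 5 with UDCA and 4 between the diets, as with all arrays. Without CA arrays 2 and 4 they were 7, 6 and 4. The shares of all tested probes called higher were 31.6%, 16.2% and 15.8% without CA arrays 3 and 4. Without CA arrays 2 and 4 those shares were 29.6%, 15.2% and 13.2%.

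Across arrays the genes did not share one order. CA array 2 held the highest ratio among CA arrays for Ly6d, H19 A_52_P571350 and all 3 Igf2bp3 probes, yet the lowest for Gpc3. UDCA array 6 held the highest UDCA ratio for Tff3, for Igf2 A_51_P516826, for Igf2bp3 A_52_P508974 and for Mdk A_51_P453635, and UDCA array 3 the highest for Afp and Gpc3. Slide 5 held UDCA array 6 alone. Array 6 was the lowest CA array for Afp, H19 A_52_P571350, Igf2 A_51_P516833, Mdk A_51_P453635, 2 of 3 Igf2bp3 probes and Tff3. Some probes split by dye. CA arrays 1 to 3, with knockout in Cy5, all lay above CA arrays 4 to 6, in Cy3, for H19 A_52_P571350, Igf2 A_51_P516833, Igf2bp3 A_52_P508974 and Tff3. On UDCA arrays Ly6d split in the same way. The other tested probes did not split so, and the fit held a dye term per probe.

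**Figure D4:**
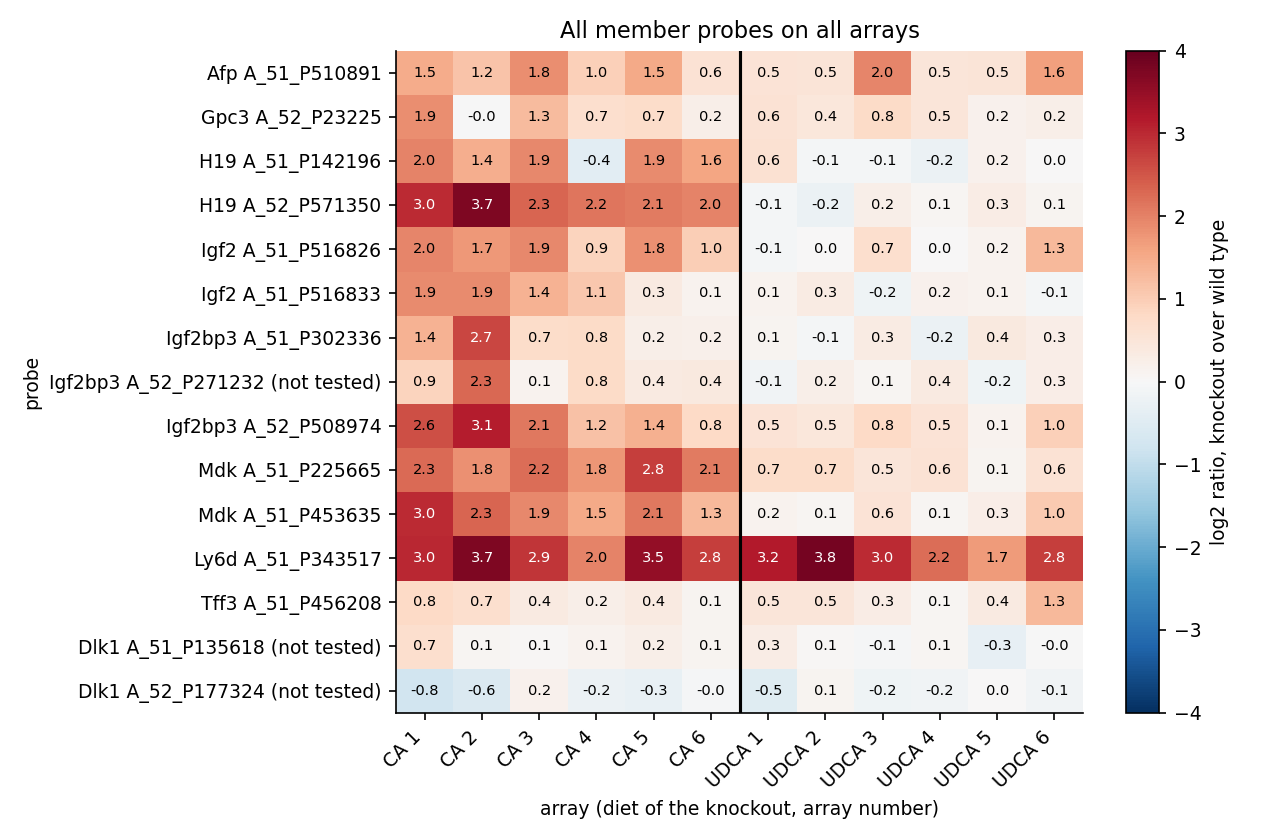
Log2 ratio of knockout over wild type (colour and printed value) for all 15 probes (rows) on the 6 CA and 6 UDCA arrays (columns). The row of Ly6d is strong on all 12 arrays, H19, Igf2, Igf2bp3 and Mdk are stronger on the CA arrays, and the Dlk1 rows stay near 0.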

How the data were processed

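Members and gene lists were chosen with earlier results of these data known. RNA of knockout and wild-type liver was hybridised together on 12 Agilent G4122F arrays. Per the file headers, Feature Extraction 9.5.3.1 gave each spot's mean intensity and local background in green and red, which the authors did not normalize, and its own processed log10 ratio. The deposited value table holds log2 ratios whose normalization is not stated in the files used here. Its direction was settled against the scanner values, and its scale and centring were not, column medians being -0.044 to 0.047.

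Intensities were corrected with normexp (offset 50) and normalized by loess within arrays in limma 3.58.1 (R 4.3.3). Of 45018 spots, 1639 controls were left out. The other 43379 gave 41174 probes after spots were averaged, and flagged values (0.922%) were set to missing. A probe was kept if well above background on at least 5 of 6 arrays in a channel of either diet, which left 21693, of which 21688 could be fitted. The log2 ratios were fitted over all 12 arrays with a term for diet and a dye effect per probe (9 residual and 5.95 prior degrees of freedom), with calls at a Benjamini-Hochberg adjusted p under 0.05. The dye effect was called for 2783 probes. Single-channel levels used loess with Aquantile scaling.

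Each gene stands by its brightest tested probe, and all probes of members were named. From each list up to 4 called genes with the largest change were named, and always Abcb4, Zhx2, Zbtb20, Igf1, Igf2r, Igf2bp1, Igf2bp2 and Alb. One gene that this rule takes is not reported here. Symbols came from a RefSeq table for 15626 tested probes and otherwise from the scanner files.

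One dye swap per diet repeats a liver, and its arrays are not named in the labels. No pair's residuals correlated above 0.141 (limit 0.3), so all arrays were kept, and p-values are too small by an unknown amount. With arrays 1 and 4 of each diet averaged, the difference between the diets for Igf2bp3 A_51_P302336 had an adjusted p of 0.122 in limma, against 0.0445. The number of arrays limits the precision. Array numbers do not pair the diets: same-numbered residuals correlated at -0.546 to 0.135. Alternatives covered background, normalization, filter, dye term, slide and array-number blocks, dye-swap pairs and left-out arrays.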

Additional observations from a re-analysis of the deposited data

Results flagged for a closer look

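A single array stood apart from its group for 2 of the 24 sets of 6 arrays examined, where chance marks about 1 set in 20. H19 A_51_P142196 read -0.41 on CA array 4, against 1.44 to 1.98 on the other CA arrays, a gap of 0.776 of the range, and its knockout spot was saturated there. Tff3 read 1.30 on UDCA array 6, against 0.06 to 0.47 on the other UDCA arrays, a gap of 0.67 of the range.

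The ratio to wild type differed between the diets, by the limma test of the difference itself, for 8 probes, all higher with CA. The differences were 1.33 and 2.47 for H19 (adjusted p of 0.00643 and 2.16e-05), 1.62 and 1.67 for Mdk (4.11e-05 and 0.000326), 1.21 and 1.04 for Igf2 (0.00363 and 0.0043), and 0.87 and 1.29 for Igf2bp3 (0.0445 and 0.00272). Among all tested probes, 16.3% were called higher with CA and 10.7% lower. Except for Mdk A_51_P225665, these probes passed the filter on dim probes only through CA arrays, which favoured calls higher with CA. For both H19 probes, Igf2 A_51_P516833 and Igf2bp3 A_51_P302336, the UDCA channels were mostly not well above background.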

How the results depend on the processing

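The results were recomputed under 39 other settings, of which 36 were planned and 3 were added after seeing the data. Of 1308 values of single probes, 1220 kept their direction and their side of the threshold, 47 lost a call, 12 gained one, 29 without a call or a test changed sign or moved beyond their spread, and 0 called values reversed. No other setting called a listed gene lower. Saturated values could not be left out for Ly6d, which then could not be fitted.

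With median centring in place of loess, 6094 probes were called with CA, 1971 with UDCA and 781 between the diets, against 12930, 5101 and 5858. Calls then split into 4942 higher and 1152 lower with CA, 1870 and 101 with UDCA, and 661 and 120 between the diets, against 7387 and 5543, 3294 and 1807, and 3542 and 2316 with loess. The median of all probes moved to 0.24 with CA and 0.30 with UDCA, against 0.04 and 0.03, so the ratios of the listed genes are relative to that level. Of the listed genes 2 were then called higher between the diets, and H19 A_51_P142196, at 1.74 (adjusted p = 0.146), and Mdk A_51_P225665, at 1.57 (adjusted p = 0.0596), were not. Tff3 lost its CA call (adjusted p = 0.127). The cause was not tested. With Agilent's processed ratios the CA calls were 52.8% higher, and with the authors' deposited values 48.8%, against 57.1%.

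A filter asking for signal on all 12 arrays in 1 channel left 4 genes with CA calls and 1 with a difference between the diets, fewer genes being tested. With the slide as a fixed block 2002 probes differed between the diets. Leaving out each array in turn gave 11803 to 13329 calls in either direction with CA, 3944 to 5580 with UDCA and 4399 to 6835 between the diets. The listed genes called higher were then 7 to 8, 3 to 6 and 4 to 5, the 3 arising without UDCA array 6. With the array number as a replicate block, although the numbers do not pair the arrays, 12303, 4453 and 4809 probes were called in either direction. Of the listed genes 8, 4 and 4 were then called higher, against 32.6%, 13.3% and 13.8% of all tested probes. Signal over background limits the dim probes of Dlk1, Igf2bp3, Igf2 and Tff3.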

Other observations

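Beside H19, which missed the threshold, 12 probes differed between the wild-type channels of the CA arrays and those of the UDCA arrays at an adjusted p under 0.05 in limma, all higher on CA arrays. They included genes of antigen presentation by major histocompatibility class II, with Cd74 at 2.02 ± 0.33 (adjusted p = 0.0486), H2-Ab1 at 1.86 ± 0.26 (adjusted p = 0.0234) and H2-Aa at 1.42 ± 0.21 (adjusted p = 0.0339). Ltb, a lymphotoxin subunit of lymphoid cells, read 2.63 ± 0.34 (adjusted p = 0.0218). Among epithelial genes, the tight junction gene Cldn7 read 2.17 ± 0.30 (adjusted p = 0.0234) and the protease inhibitor gene Spint1 1.18 ± 0.18 (adjusted p = 0.0424). Cldn7 also stands on the cholangiocyte list. The other 6 probes were those of Foxj1, Neurl1a, Runx3, Tmem119, Igsf9 and Ncf1, between 0.85 and 1.64. Without CA arrays 2 and 4 the count was 138 higher and 2 lower.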
